A study of Arabidopsis thaliana with 4 samples.

Results

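The genes described here are those of the Arabidopsis thaliana mitochondrial genome, taken as every gene of the deposited RNA-seq table whose identifier begins with ATMG. They number 111 of 27322 genes. The mitochondrial genome of a plant encodes a small set of core subunits of the respiratory chain and ATP synthase, factors that attach haem to c-type cytochromes, and some ribosomal proteins. It also holds many open reading frames without a known function. Nuclear genes encode the other mitochondrial proteins, together with the polymerases that copy and transcribe this genome and the factors that splice and edit its RNA. In plant mitochondria a poly(A) tail marks RNA for decay.

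Shoot apices of 6-week-old plants were compared between clv3, mutated in the gene of a secreted peptide that restrains the stem cell population, and mp clv3, which also carries a mutation in MP (MONOPTEROS), a transcription factor of the auxin pathway needed to start flowers. Both groups carry the clv3 mutation, and older flowers had been removed. The growth protocol of the labels names the double mutant mp319 clv3-7, and names Col-0, the wild-type accession, where the genotype labels say clv3. The labels give 2 libraries per genotype, but for each genotype the table holds only 1 column of reads and 1 of RPKM (reads scaled to model length and library size). The spread between libraries is therefore unknown, and no difference below has a replicate check. The clv3 column held 100328819 reads and the mp clv3 column 103347441. Reads of MP numbered 25336 in clv3 and 5063 in mp clv3, or 5.15-fold fewer, with a 95% counting interval of 4.94 to 5.38. Reads of CLV3, the gene that both groups are labelled as mutant for, numbered 110 in clv3 and 1278 in mp clv3, or 11.3-fold more (8.56 to 15.1). RNA was selected on poly(A), so the levels below are those of the mitochondrial RNA that passed this selection. In these bulk apices, changes in cell composition, in mitochondria per cell and in RNA per mitochondrion cannot be told apart.

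A product could be assigned to 25 of the 111 mitochondrial genes from the reference annotation, and the other 86 are called unnamed models below and are given no function. Some annotated genes, among them matR, mttB and a further atp6 gene, were not tied to a model. The unnamed models may therefore include known genes. Named models had a median length of 783 bases and unnamed models of 376.5 bases. A near-identical copy of mitochondrial DNA lies on chromosome 2. Of the 25 named genes, 18 have their whole coding sequence there at 99% identity or more, 2 have part of it (rpl16 with 40.6% of its bases and rps3 with 9.93%), and 5 have none (nad9, ccmB, cox1, cox2 and atp4). Reads of near-identical copies cannot be told apart, and how they were assigned is not given in the sources used here. The coding sequences of atp9 and cox2 show both situations, with coordinates from a match to TAIR10.1. The atp9 sequence, which encodes the ring subunit of ATP synthase, is shown whole because the same 225 bases stand in the mitochondrial genome (MT:270961-271185, minus strand) and on chromosome 2 (chr2:3251856-3252080, minus strand). Its start and stop codons are in capitals.
atp9: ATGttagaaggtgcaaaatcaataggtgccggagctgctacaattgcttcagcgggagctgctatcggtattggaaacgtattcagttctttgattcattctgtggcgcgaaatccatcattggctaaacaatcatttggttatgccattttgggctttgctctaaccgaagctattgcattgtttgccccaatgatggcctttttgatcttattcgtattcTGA
A stretch of 150 bases of cox2, which encodes subunit II of cytochrome c oxidase (MT:6407-6556, plus strand), is shown beside its nearest relative on chromosome 2 (chr2:3347094-3347243, plus strand), because here the nearest relative differs at several bases. The whole match runs over 306 bases with 11 mismatches, an identity of 96.4%. The 10 mismatches in this stretch are in capitals in both lines.
cox2: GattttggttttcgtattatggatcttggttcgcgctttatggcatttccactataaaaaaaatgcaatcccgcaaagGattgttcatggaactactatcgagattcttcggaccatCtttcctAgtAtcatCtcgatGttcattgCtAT
cox2 relative: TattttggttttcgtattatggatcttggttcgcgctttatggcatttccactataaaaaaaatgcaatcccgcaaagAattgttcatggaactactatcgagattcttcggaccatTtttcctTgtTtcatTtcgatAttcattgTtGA

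Mitochondrial genes were more often higher than lower in mp clv3, although most genes of the table that changed were lower. In the authors' deposited table, 58 of the 111 genes were higher in mp clv3 at an FDR under 0.05, 3 were lower and 50 did not pass. Over all 27322 genes, the shares that the authors' deposited table calls were 26.4% for higher, 46.3% for lower and 72.7% for either direction. An exact binomial test on read pairs, which compares the columns rather than the genotypes, called 39 mitochondrial genes higher and 2 lower, beside 23.5% and 40.9% of all genes. After scaling to the median gene it called 47 and 1, beside 29.8% and 33.7%. "Higher", "lower" and "called" mean this FDR threshold from here on. The median log2 ratio of mp clv3 over clv3 was 0.52 for mitochondrial genes and -0.11 for all genes, and 94 of the 111 had a ratio above 1. Among the 18832 genes whose mean reached 100 reads the median was -0.12, and relative to that shift the mitochondrial median was 0.64. A rise of at least 2-fold was called for 21 mitochondrial genes and a fall of that size for 1, beside 9.33% and 18.5% of all genes in the authors' deposited table.

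The summed share of reads moved much less than the single genes did. Mitochondrial genes took 0.0446% of the reads in clv3 (exact 95% interval 0.0440 to 0.0452) and 0.0480% in mp clv3 (0.0475 to 0.0486), a rise of 1.08-fold (1.06 to 1.10). A pair of unnamed models, ATMG00030 and ATMG00370, held 45.4% of these reads in clv3 and 33.4% in mp clv3. The pair summed was 1.26-fold lower in mp clv3 (1.23 to 1.30), while the other 109 genes summed were 1.31-fold higher (1.28 to 1.34). The 25 named genes summed rose from 17555 to 21503 reads, or 1.19-fold (1.16 to 1.22).

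Chloroplast genes moved the other way, and their share is given because it is part of the same column totals. It was 0.803% of the reads in clv3 and 0.498% in mp clv3. The authors' deposited table calls 78 of 81 chloroplast genes lower and none higher, beside 46.3% and 26.4% of all genes. The median log2 ratio of chloroplast genes was -0.66. The part of the chloroplast share in the mitochondrial result was not tested as a cause. Leaving both organelle genomes out of the column totals moved every log2 ratio by 0.0044.

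Genes of the respiratory chain were higher or not called, and none was lower. The class counts here and below stand beside 26.4% higher and 46.3% lower over all genes. Complex I, the NADH dehydrogenase that feeds electrons into the chain, had 5 named members, of which 2 were higher. The peripheral-arm subunit gene nad9 had 698 clv3 reads and 835 mp clv3 reads (12.1 and 14.1 RPKM), which is 1.16-fold higher (1.01 to 1.34). The membrane-arm subunit gene nad3 had 287 and 405 reads (7.95 and 10.9 RPKM), which is 1.37-fold higher (1.10 to 1.71). Both were called in the authors' deposited table, with FDRs of 0.00455 for nad9 and 5.82e-05 for nad3. The exact binomial test on read pairs did not call nad9 (adjusted p = 0.062). The other members had nearly the same level in both columns. The membrane-arm subunit gene nad4 had 10.9 and 10.3 RPKM, and its interval of 0.862 to 1.05 included 1. For nad6, another membrane-arm subunit gene, the levels were 5.42 and 5.51 RPKM (1.02-fold, 0.819 to 1.26). For nad7, a peripheral-arm subunit gene, they were 11.3 and 11.5 RPKM (1.02-fold, 0.919 to 1.14). The 5 genes summed had a ratio of 1.04 (0.981 to 1.10), and their median log2 ratio was 0.03. The intron-split genes nad1, nad2 and nad5 and the short nad4L could not be tied to a single model and were not analysed under these names. Cytochrome b of complex III, which passes electrons from ubiquinol to cytochrome c, is encoded by cob. It had 166 clv3 reads and 187 mp clv3 reads (1.40 and 1.53 RPKM) and was not called (1.09-fold, 0.805 to 1.49).

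Complex IV, the cytochrome c oxidase that passes electrons to oxygen, was the class in which every named member rose. The catalytic core subunit gene cox1 rose from 846 to 1265 reads (5.32 and 7.73 RPKM), or 1.45-fold (1.28 to 1.65). For cox2, whose product receives electrons from cytochrome c, reads were 488 and 641 (6.21 and 7.92 RPKM), a rise of 1.28-fold (1.08 to 1.51). The gene of the third core subunit, cox3, had 295 and 421 reads (2.03 and 2.82 RPKM), a rise of 1.39-fold (1.12 to 1.72). In the authors' deposited table the FDRs were 5.17e-17 for cox1, 7.04e-05 for cox2 and 2.26e-05 for cox3. Summed, the class rose from 1629 to 2327 reads, or 1.39-fold (1.27 to 1.52). The coding sequences of cox1 and cox2 have no copy on chromosome 2 at 99% identity, whereas that of cox3 has a whole one.

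ATP synthase, which makes ATP from the proton gradient, had 5 named members, of which 3 were higher and none lower. The catalytic-head alpha subunit gene atp1 had 781 and 1108 reads (5.11 and 7.03 RPKM), a rise of 1.38-fold (1.21 to 1.57) with an FDR of 9.75e-12 in the authors' deposited table. The ring subunit gene atp9 had 1381 and 1676 reads (27.3 and 32.2 RPKM), a rise of 1.18-fold (1.06 to 1.30), FDR 9.39e-06 in the authors' deposited table. It was the most abundant named gene per length in both columns. The subunit a gene atp6, whose product forms the proton channel with the ring, had 591 and 722 reads (4.46 and 5.29 RPKM), or 1.19-fold (1.01 to 1.39), FDR 0.00273 in the authors' deposited table. The exact binomial test on read pairs did not call atp6 (adjusted p = 0.053). The membrane-sector genes atp4 and atp8 were not called. Their levels were 7.40 and 8.00 RPKM for atp4 (1.08-fold, 0.896 to 1.31) and 7.33 and 6.61 RPKM for atp8 (0.902-fold, 0.724 to 1.12).

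**Figure D1:**
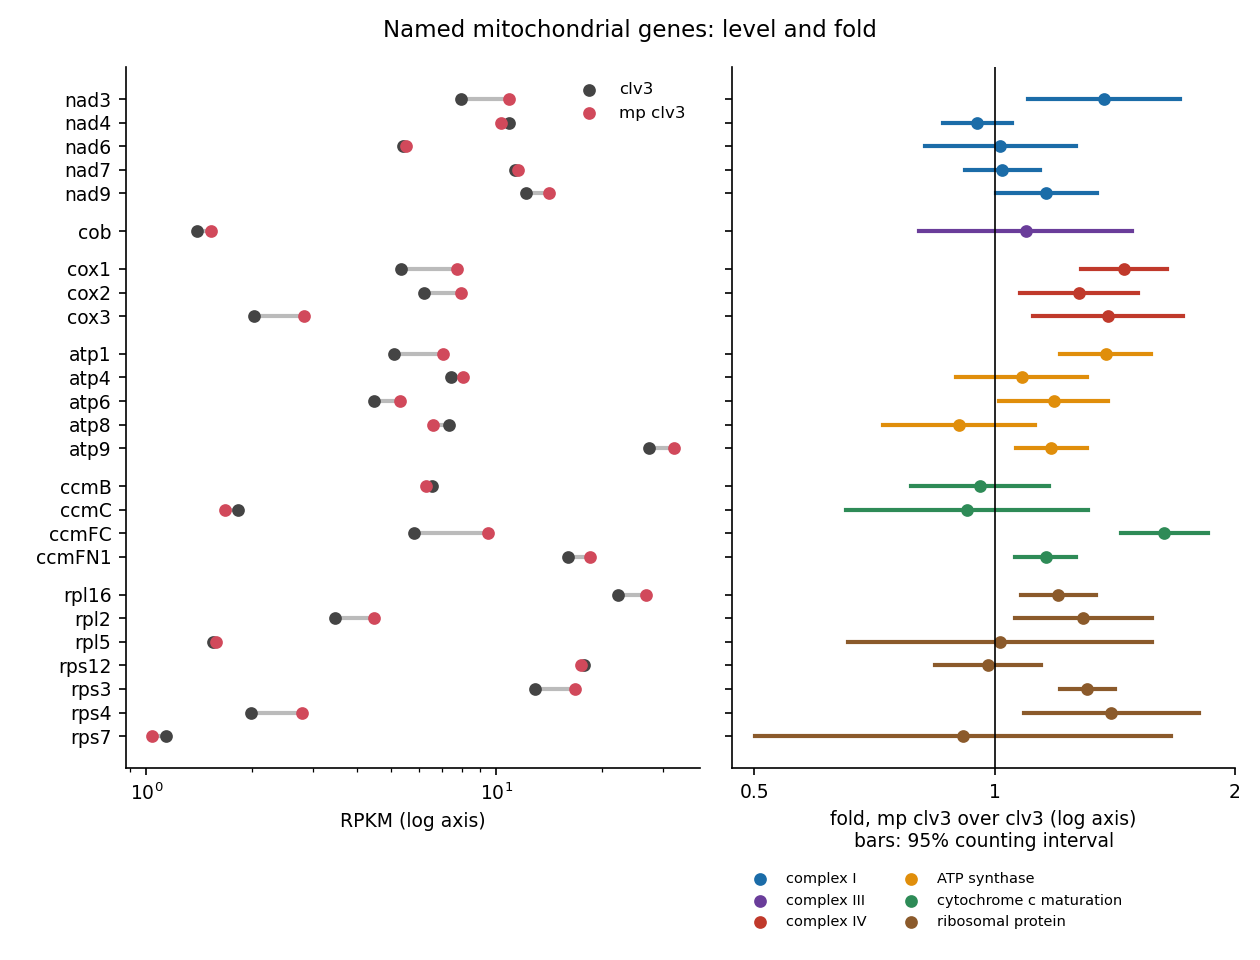
The left panel plots the RPKM of the 25 named mitochondrial genes (log axis) in clv3 (dark points) and mp clv3 (red points), 1 column per genotype, and the right panel the fold of mp clv3 over clv3 (log axis) with its 95% counting interval, coloured by class. All 3 complex IV genes lie above 1, from 1.28-fold to 1.45-fold, and ccmFC lies farthest to the right at 1.63-fold.

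Cytochrome c maturation, the export of haem and its attachment to c-type cytochromes, had 4 named members. Among named mitochondrial rows the largest rise was that of ccmFC, which encodes part of the haem lyase module and has a whole copy on chromosome 2. Its reads were 792 in clv3 and 1332 in mp clv3 (5.81 and 9.48 RPKM), or 1.63-fold more (1.44 to 1.85), FDR 3.12e-28 in the authors' deposited table. Another haem lyase gene, ccmFN1, had 1844 and 2201 reads (16.0 and 18.5 RPKM), or 1.16-fold more (1.06 to 1.27), FDR 4.55e-06 in the authors' deposited table. The genes of the haem export machinery were not called. For ccmB the levels were 6.56 and 6.29 RPKM (0.959-fold, 0.786 to 1.17), and for ccmC they were 1.82 and 1.68 RPKM (0.923-fold, 0.650 to 1.31). The interval of ccmFC did not overlap those of the other 3 genes.

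Of the 7 named ribosomal protein genes, 4 were higher and 3 were not called. Among large-subunit genes, rpl16 had 1207 and 1494 reads (22.3 and 26.8 RPKM, 1.20-fold, 1.08 to 1.34), and rpl2 had 364 and 484 reads (3.46 and 4.46 RPKM, 1.29-fold, 1.06 to 1.57). Among small-subunit genes, rps3 had 2157 and 2902 reads (12.9 and 16.8 RPKM, 1.31-fold, 1.21 to 1.41), and rps4 had 218 and 314 reads (2.00 and 2.79 RPKM, 1.40-fold, 1.09 to 1.80). The FDRs of these 4 genes in the authors' deposited table ran from 8.60e-21 for rps3 to 0.000306 for rpl2. The small-subunit gene rps12 stood among the 5 most abundant named genes and had 673 and 680 reads (17.7 and 17.4 RPKM, 0.981-fold, 0.841 to 1.14). The rows of rpl5, with 87 and 91 reads, and rps7, with 51 and 48 reads, held the fewest reads among named genes, and their intervals of 0.655 to 1.58 and 0.501 to 1.66 include 1.5-fold changes in either direction, which are not detectable at this depth. No named gene reached a 2-fold change.

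Over all 25 named genes, the ratio was above 1 for 19 and ran from 0.902-fold for atp8 to 1.63-fold for ccmFC. The authors' deposited table calls 14 higher and none lower, beside 26.4% and 46.3% of all genes. The median log2 ratio of the named genes was 0.22. Genes with and without a copy on chromosome 2 both included higher members. Of the 5 without a copy, cox1, cox2 and nad9 were higher in the authors' deposited table, and the 5 summed were 1.23-fold higher (1.14 to 1.31). Of the 18 with a whole copy, the authors' deposited table calls 9 higher and none lower, and the 18 summed were 1.16-fold higher (1.12 to 1.20).

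Unnamed models spread far more widely. The authors' deposited table calls 44 of the 86 higher, 3 lower and 39 neither, beside 26.4% higher and 46.3% lower over all genes. The median log2 ratio of these models was 0.70, and all 21 of the rises of at least 2-fold were among them. Both of the most abundant mitochondrial models were lower. ATMG00030 went from 11134 to 10554 reads (343 and 315 RPKM), which is 1.09-fold lower (1.05 to 1.13), FDR 1.63e-09 in the authors' deposited table. Its log2 ratio of -0.12 equalled the median shift of all genes with at least 100 reads, so relative to that shift it did not move (0.0015). ATMG00370 had 9198 and 6031 reads (153 and 97.3 RPKM), which is 1.57-fold lower (1.50 to 1.65), FDR 2.07e-166 in the authors' deposited table. It was lower under every scaling tried. The third called fall was that of ATMG01410, with 33 and 16 reads, and its interval included 1.

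The unnamed models described next had at least 100 reads in the higher column. ATMG01020, ATMG01060 and ATMG00300 met this through the mp clv3 column alone, so their place among these rises is a description. ATMG01020 rose from 53 reads in clv3 to 268 in mp clv3 (1.14 and 5.61 RPKM), or 4.91-fold (3.22 to 7.76). ATMG01060 rose from 35 to 110 reads (3.05-fold, 1.75 to 5.56) and ATMG00300 from 51 to 149 (2.84-fold, 1.79 to 4.64). ATMG01370 rose from 542 to 1323 reads (16.1 and 38.1 RPKM, 2.37-fold, 2.05 to 2.74), and moved from rank 7 among mitochondrial models in clv3 to rank 3 in mp clv3. These 4 rises had FDRs of 3.41e-34, 9.32e-10, 1.12e-11 and 7.33e-70 in the authors' deposited table. ATMG00040 had 124 and 249 reads (1.95-fold, 1.43 to 2.69), and ATMG01090, whose chromosome 2 relative is annotated as similar to ATP synthase subunit 9, had 414 and 782 (1.83-fold, 1.55 to 2.18). Among models with many reads, ATMG00660 rose from 747 to 1175 (1.53-fold, 1.34 to 1.74) and ATMG00690 from 604 to 1001 (1.61-fold, 1.39 to 1.86).

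Rare models spread most widely in both directions. The 66 mitochondrial models whose mean over the columns was under 100 reads had log2 ratios from -1.09 to 3.71 with a median of 0.73, and the authors' deposited table calls 27 of them higher and 1 lower. Of other genes with reads and a mean under 100, it calls 12.6% higher and 45.1% lower, and their median was -1.76. The 45 mitochondrial models whose mean reached 100 reads had ratios from -0.65 to 2.30 with a median of 0.39, and the authors' deposited table calls 31 higher and 2 lower. Of other genes at that depth, it calls 34.2% higher and 53.5% lower, and their median was -0.12. Across the 111 models, Spearman's rho between level and log2 ratio was -0.28, given as a description, since these models share the 2 columns and their depth. Of the 21 rises of at least 2-fold, 18 came from models with a mean under 100 reads. The most extreme ratios came from ATMG01250, with 2 reads in clv3 and 27 in mp clv3, and ATMG01300, with 2 and 22. With the 2 clv3 reads taken as 1 pair, their intervals ran from 1.98 to 556 and from 1.55 to 460. Of low mitochondrial values in clv3, 54.7% were even, beside 60% in the chromosome 2 stretch that holds the copies and 77.1% for genes outside both. Where mates were counted singly, an interval on pairs is wider than one on reads. ATMG00550 had 0 clv3 reads and 2 mp clv3 reads, and it, ATMG00770 and ATMG00910 were at or under 6 reads in both columns, so no fold is given.

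**Figure D2:**
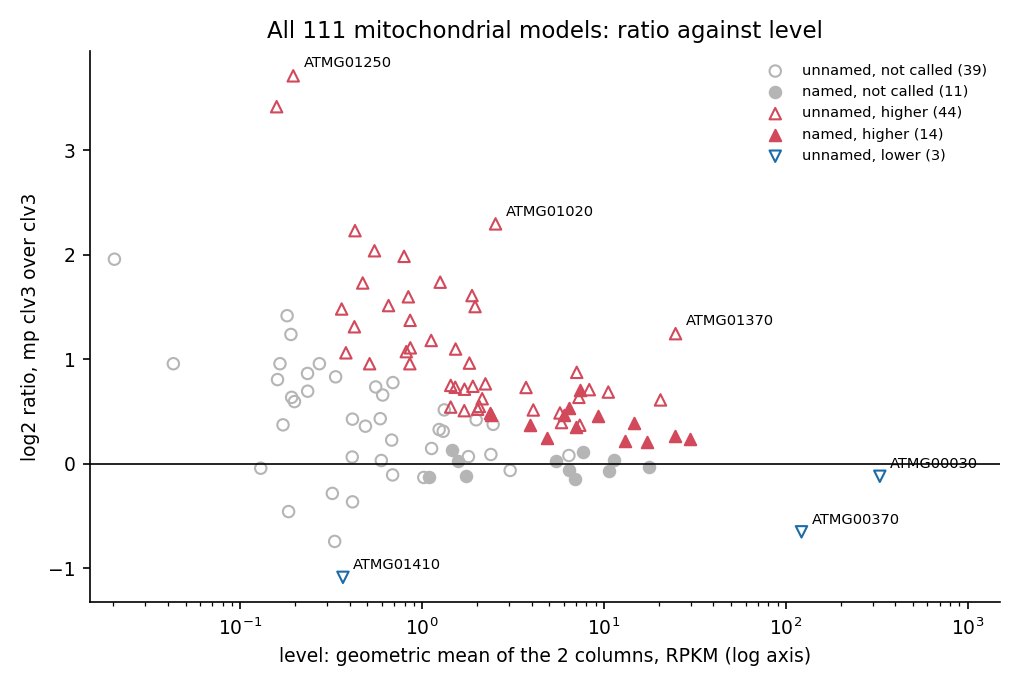
Each point is 1 of the 111 mitochondrial models, placed by its level (geometric mean RPKM of the 2 columns, log axis) and by the log2 ratio of mp clv3 over clv3, with filled symbols for named genes and triangles for calls at the authors' FDR under 0.05. Unnamed models of low level have the widest spread of ratios, while ATMG00030 and ATMG00370 stand alone at the highest levels with ratios below 0.

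Genes of the chromosome 2 stretch that holds the copies (AT2G07660 to AT2G07840) were also more often higher than lower, but not when summed. The authors' deposited table calls 31 of 64 higher and 4 lower, beside 26.4% and 46.3% of all genes, and the median log2 ratio was 0.39. The 64 genes summed went from 36373 to 34885 reads, a ratio of 0.931 (0.912 to 0.951). That sum holds AT2G07706, which fell from 7583 to 4528 reads, and AT2G07739, which fell from 4405 to 2967. These rows weigh heavily on it. The 50 mitochondrial models linked to chromosome 2, ATMG00370 among them, summed to a ratio of 0.966 (0.937 to 0.995). The 61 without a link, ATMG00030 among them, summed to 1.15 (1.12 to 1.17). Both sums depend on these abundant models. Median log2 ratios were 0.55 for linked and 0.52 for unlinked models, with 54% and 50.8% called higher. Between a mitochondrial model and the chromosome 2 gene that its annotation ties to it, 41 links had both rows in the table. Both rows were called in 14 links, always in the same direction (13 higher, 1 lower), and only 1 row was called in another 14. Median log2 ratios over the links were 0.47 for mitochondrial rows, 0.36 for chromosome 2 rows and 0.42 for both summed. Since reads may be split between such rows, these are not independent measurements.

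Several named genes illustrate the links. The alpha subunit pair, atp1 and AT2G07698, rose by similar factors, 1.38-fold and 1.42-fold (1.28 to 1.58), and the sum rose 1.41-fold (1.30 to 1.52). For cox3, AT2G07687 rose from 170 to 312 reads (1.78-fold, 1.36 to 2.35), and the sum rose 1.53-fold (1.29 to 1.81). For ccmFC, AT2G07815 rose from 461 to 610 reads (1.28-fold, 1.08 to 1.53), and the sum rose 1.50-fold (1.36 to 1.67), slightly less than that of cox3. For atp9, whose identical sequences are printed above, AT2G07671 had 1763 and 1852 reads and was not called, and the sum was 1.09-fold higher (1.02 to 1.17). The largest disagreement among named genes was that of rps7, where AT2G07696 rose from 181 to 287 reads (1.54-fold, 1.18 to 2.03) while the mitochondrial row had 51 and 48. The abundant ATMG00370 and its relative AT2G07739 both fell, the latter from 4405 to 2967 reads (0.654-fold, 0.612 to 0.699). AT2G07706, a far longer model than its relative ATMG00470, fell from 7583 to 4528 reads, while ATMG00470 had 41 and 53 and was not called. AT2G07674 rose from 72 to 429 reads (5.78-fold, 4.05 to 8.48), while its relative ATMG01010 rose from 22 to 44.

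**Figure D3:**
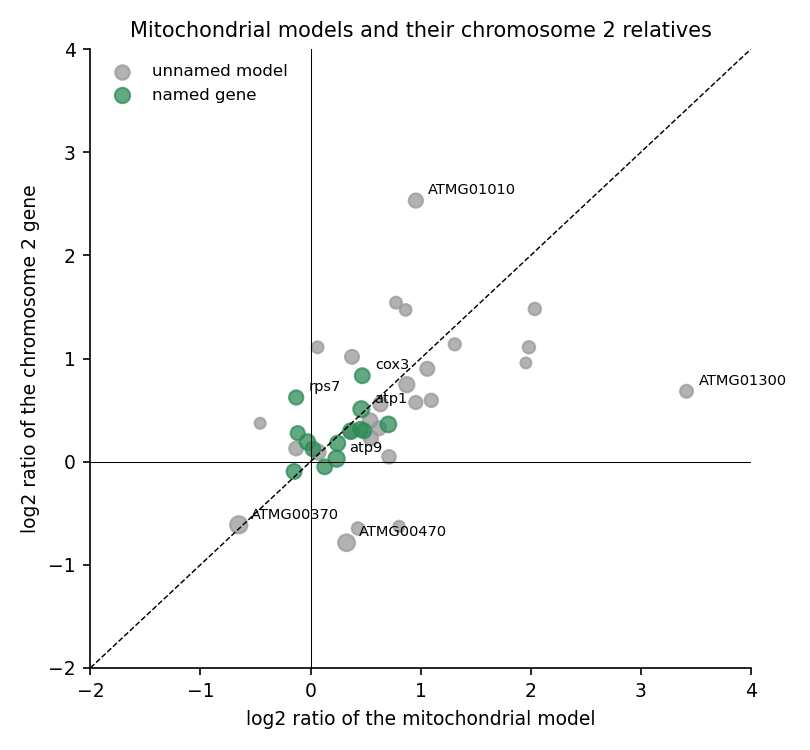
Each point is 1 of the 41 links between a mitochondrial model (log2 ratio of mp clv3 over clv3 on the horizontal axis) and its chromosome 2 relative (vertical axis), with larger points for more reads, green for named genes and grey for unnamed models. Among named genes rps7 lies farthest from the dashed line of equal ratios, and ATMG00470 and ATMG01010 are among the unnamed models far from it.

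Most listed nuclear genes that serve the mitochondrial genome and its RNA were lower. For comparison, 53.3% of genes with a mean of 100 reads or more are called lower and 87.6% in either direction in the authors' deposited table. The 4 listed genes of mitochondrial RNA polymerases and nucleases are all called lower in the authors' deposited table, and their median log2 ratio was -0.36. The gene of the mitochondrial polynucleotide phosphorylase, AT5G14580, which degrades RNA, fell from 3190 to 2283 reads (1.44-fold lower, 1.33 to 1.55). Both listed phage-type RNA polymerase genes fell, AT5G15700 from 3582 to 2708 reads (1.36-fold lower, 1.27 to 1.46) and AT1G68990 from 6612 to 5605 (1.22-fold lower, 1.16 to 1.28). Of 16 genes of RNA editing and splicing factors, the authors' deposited table calls 14 lower and 2 higher, and their median log2 ratio was -0.28. The gene of the editing factor MORF8 (listed as RIP1) fell from 40139 to 28002 reads (1.48-fold lower, 1.44 to 1.51). The pentatricopeptide repeat protein genes SLO3 (AT3G61360) and BIR6, which act in the splicing of mitochondrial introns, were 1.84-fold lower (1.60 to 2.12) and 1.38-fold lower (1.25 to 1.52). Of 8 genome maintenance genes, the authors' deposited table calls 7 lower and none higher, and their median was -0.24. Among them were the recombinase gene RECA3 (1.57-fold lower, 1.43 to 1.72), the organellar DNA polymerase gene listed as POLGAMMA1 (1.43-fold lower, 1.38 to 1.49) and the helicase gene AT1G30680 (1.33-fold lower, 1.25 to 1.41). These medians lie 0.24, 0.16 and 0.11 below the median shift of all genes with at least 100 reads.

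Nuclear-encoded partners of the mitochondrial subunits showed no common direction. Of 26 nuclear genes of respiratory subunits and cytochrome c, the authors' deposited table calls 8 higher, 10 lower and 8 neither. Among genes with a mean of 100 reads or more, 34.3% are called higher and 53.3% lower. The median log2 ratio of the 26 genes was -0.02. The largest change was that of CYTC-2, a cytochrome c gene, which rose from 362 to 1566 reads (4.20-fold, 3.57 to 4.96). A complex IV subunit gene, AT2G47380, rose from 3546 to 5018 reads (1.37-fold, 1.29 to 1.46). The other complex IV genes of the list changed less than the genes given here for it. The complex I gene GAMMA CA2, a carbonic anhydrase-like subunit, fell from 12306 to 10403 reads (1.22-fold lower, 1.17 to 1.26). Of the nuclear-encoded mitochondrial ribosomal protein genes, 4 of 5 listed were measured, and the authors' deposited table calls 1 higher and 2 lower. HLL, a large-subunit gene, fell from 2610 to 1517 reads (1.77-fold lower, 1.62 to 1.94), and AT2G44065, another, rose from 3359 to 4143 (1.20-fold, 1.12 to 1.28). AT3G49080, a small-subunit gene, had 6228 and 6038 reads (1.06-fold lower, 1.01 to 1.12).

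**Figure D4:**
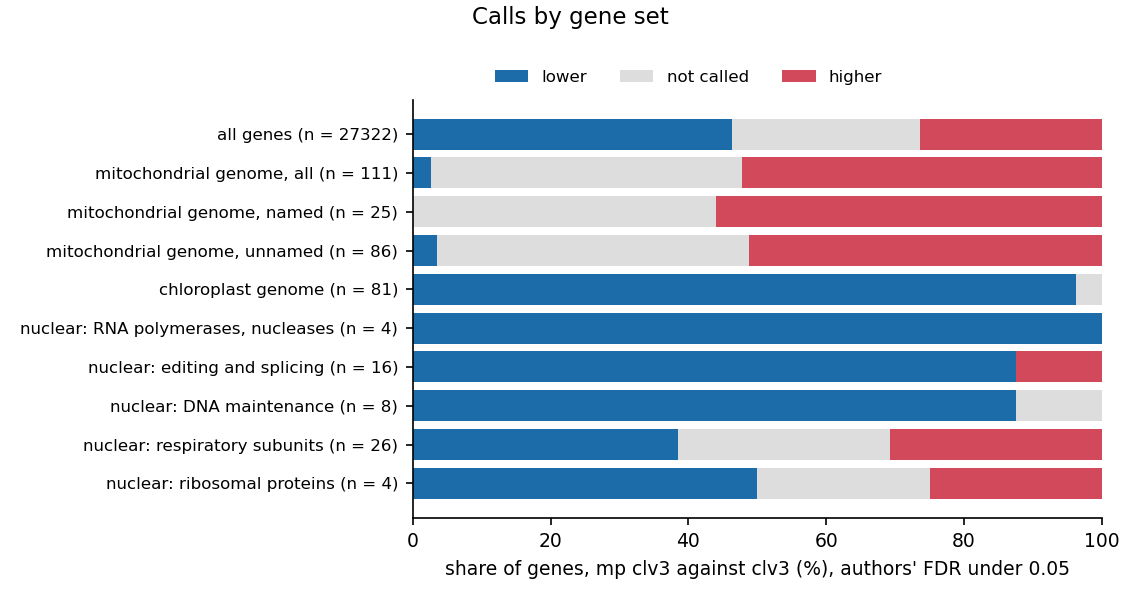
Bars show, for each gene set, the share of genes lower (blue), not called (grey) and higher (red) in mp clv3 against clv3 at the authors' FDR under 0.05, with the number of genes in brackets. Mitochondrial genes show 52.3% higher and 2.70% lower, whereas all genes show 26.4% and 46.3% and chloroplast genes 0% and 96.3%.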

How the data were processed

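RNA was measured in 4 libraries, 2 per genotype, per the labels. The submitters' processing notes name CASAVA 1.7, BWA and TAIR10. The counting method, its use of strand and the test behind the FDR were not given in the sources used here. The authors deposited 1 column of estimated counts of reads per genotype, whole apart from 0.5, which was read as 0. The deposited RPKM scale these counts to model length and column total, per the file headers. The log2 ratio and the FDR (an adjusted p-value) are the authors' own.

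The members and gene lists were chosen with earlier results of these data known. Calls are the authors' FDR under 0.05, since with 1 column per genotype no test over libraries was possible. Folds are read ratios divided by the ratio of column totals (1.03), with exact Clopper-Pearson 95% intervals on read pairs (reads divided by 2). Intervals and the floor of 3 read pairs (6 reads) cover counting error only. The exact binomial test on read pairs, with Benjamini-Hochberg adjustment, compares columns and not genotypes. It was run on simulated pair counts with counting error only, as the test assumes. That run cannot show how the test behaves with spread between libraries. The table had 27323 rows, and 1 displaced row was left out.

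Members were named in 14 cases from RefSeq notes on chromosome 2 genes. Except for ccmFC, the gene overlaps a copy of a mitochondrial coding sequence (BLASTN 2.17.0, TAIR10.1). For ccmFC the note was matched to a RefSeq gene synonym. In 11 cases the model length, recovered from reads and RPKM, equalled a single RefSeq coding sequence. ATMG00270 and ATMG01260 both had the length of nad6 (618 bases). ATMG01260 was set aside because its chromosome 2 link lies elsewhere. Text gives full values for named members with at least 100 reads in either column. For unnamed models it gives the 6 largest called changes each way with at least 100 reads in the higher column, of which there were 2 falls, and the 6 with most reads. Each nuclear list is given by its 3 largest changes. Other genes, among them rpl5, rps7, the low-count models and the chromosome 2 examples, were chosen after their values were seen. Python 3.11.15, SciPy 1.17.1 and pandas 2.3.3 were used.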

Additional observations from a re-analysis of the deposited data

How the results depend on the processing

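No paired analysis was possible because the table holds 1 column per genotype, which also left no replicate to leave out. No ribosomal RNA gene was identified among the members, so leaving such genes out gave no value. The number of mitochondrial genes higher in mp clv3 (58) became 31 where the mean reached 100 reads, 21 at 2-fold or more and 31 without members linked to chromosome 2. For named genes (14) it became 0 at 2-fold or more and 6 without linked members. For unnamed models (44) it became 27 in the exact binomial test on read pairs, also with totals without organelle genes, 17 where the mean reached 100 reads, 21 at 2-fold or more and 25 without linked members. Members without such a link can still have a copy on chromosome 2. The exact test did not call nad9 and atp6. The 3 lower genes became 1 at 2-fold or more and 1 in the exact test with median scaling. The 21 rises of at least 2-fold became 3 with a pseudocount of 1 RPKM. The median log2 ratio of all members (0.52) was 0.64 after median scaling, 0.39 with at least 100 reads in either column and 0.28 with the pseudocount. That of unnamed models (0.70) was 0.82, 0.58 and 0.32, and that of named genes (0.22) was 0.34 after median scaling. A model can pass the filter on either column through mp clv3 alone. Where the mean reached 100 reads, the median of all members was also 0.39. The share ratio (1.08) was 1.13 without the member with most reads and 1.31 without the 2 with most, an alternative chosen after seeing the data. Median scaling, with exact tests chosen after seeing the data, turned the log2 ratios of ATMG00030 (0.0015), ccmB (0.061), nad4 (0.050), ccmC (0.0052) and rps12 (0.094) from below to above 0. Summing with the chromosome 2 row turned ccmC (0.068) and rps12 (0.084). The cause was not tested. Depth limits models with under 100 reads, whose intervals often span more than 2-fold.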

Other observations

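Of 17 cases in which a mitochondrial model and any nuclear gene held the same reads in both columns (over 20 reads in mp clv3), 4 lay in the chromosome 2 stretch. In these 4 cases the model lengths differed, and the cause of the matches was not tested. They were ATMG00140 and AT2G07806 (56 and 97 reads), ATMG00680 and AT2G07672 (8 and 23), ATMG01100 and AT2G07705 (18 and 39), and ATMG01240 and AT2G07721 (6 and 29). ATMG00680 and ATMG01240 are among the 21 models with a called rise of at least 2-fold, as is ATMG01100.

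Of values from 1 to 49 reads, 54.7% were even among 53 mitochondrial models in clv3 and 65.1% among 43 in mp clv3. Genes of the chromosome 2 stretch had 60% even among 20 in clv3 and 68.75% among 16 in mp clv3. Genes outside both sets had 77.1% and 78.2% even values in that range. Both mates of a pair counted together give even values.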
